A study of Rattus norvegicus with 15 samples.

Results

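Ki-67, the type II topoisomerases and the condensin subunits were followed in sorted rat hepatocytes through 10 genes: Top2a, Top2b, Mki67, Smc2, Smc4, Ncapd2, Ncapg, Ncaph, Ncapg2 and Ncapd3. Members were the probes whose gene name in the array files is one of these symbols. Of the 10 genes, 8 had such probes, 16 probes in all, out of 45598 probes on the array. All 8 genes were tested, through 15 of the probes, among 17055 tested features. Ncapd2 and Ncapg had no probe under that name. A probe whose written description names each of them is given separately below, as is a second probe for Ncaph and another for Ncapg2.

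Hepatocytes came from female Wistar rats of 5 to 14 weeks. They were stained with Hoechst33342, a dye that binds DNA, and sorted into cells with a DNA content of 2c, 4c or 8c. In each of 5 experiments all 3 classes were taken, which gave 5 arrays per class and 15 in all. The rats were 12, 14, 6, 5 and 6 weeks old in experiments 1 to 5. The animals carried no transgene or treatment in the labels, and whether a sort pooled animals is not stated there. A gate on DNA content admits a resting cell of that class and a cell of the class below that has replicated its DNA, and both kinds cannot be told apart in these RNA samples. Levels are relative to the whole RNA of an array and say nothing about copies per cell. Fewer cells with a transcript and less transcript per cell cannot be told apart either.

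Condensin is a ring-shaped complex that folds chromatin into compact mitotic chromosomes. Its ATPase arms, the proteins made from Smc2 and Smc4, are common to both forms, condensin I and condensin II. Each form adds a kleisin that closes the ring (Ncaph in condensin I) and a pair of HEAT-repeat subunits (Ncapd2 and Ncapg in condensin I, Ncapd3 and Ncapg2 in condensin II). Topoisomerase II passes one DNA duplex through another and so frees sister chromatids from each other. Its alpha form, Top2a, is made mainly by dividing cells, and its beta form, Top2b, is also made by cells that have stopped dividing. Ki-67, the product of Mki67, coats mitotic chromosomes and is the usual marker of proliferating cells. Most hepatocytes of an adult liver are quiescent.

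A level below is the log2 of the processed signal minus the 75th percentile of the array, taken over the 16211 probes above background on every array. A level of 0 is that percentile, and most members lay well below it. Between 39.6% and 47.4% of probes per array were well above background, the flag set by the extraction software, and no spot was saturated. The 12 hepatocyte markers were all above background on all 15 arrays, with a summed linear level (in units of the 75th percentile) of 843 to 1330 in 2c, 894 to 1306 in 4c and 831 to 1243 in 8c, and 0 of 12 passed in any comparison. Of 8 tested markers each, 7 of Kupffer cells, 6 of stellate cells and 4 of sinusoidal endothelial cells fell from 2c to 8c, and 6, 6 and 3 fell from 2c to 4c. Of these markers 0 passed between 8c and 4c. Summed over the whole list of 12, Kupffer markers ranged from 0.777 to 15.1 in 2c, 0.170 to 0.627 in 4c and 0.134 to 0.569 in 8c. Stellate markers, also 12, ranged from 1.22 to 11.45, 0.284 to 0.818 and 0.255 to 0.913. The 9 endothelial markers on the array ranged from 0.386 to 2.05, 0.137 to 0.352 and 0.132 to 0.320. In 8c, 5, 5 and 2 markers of these lists were above background on no array. What part these cells had in the 8c minus 2c differences of the members was not tested. The median level of 21 pancreatic acinar transcripts was above -4 on 6 arrays. In experiment 1 these were 2c and 8c, in experiment 2 all 3 classes and in experiment 3 only 8c. Of 19 tested acinar transcripts 0 passed in any comparison. Their median difference was 0.08 for 8c minus 2c, -2.64 for 4c minus 2c and 2.80 for 8c minus 4c. What part these transcripts had in the differences of the members was not tested. The first slide carried all arrays of experiments 1 and 2, plus 2c and 4c from experiment 3. The second carried 8c from experiment 3 and all of experiments 4 and 5, so slide and age overlap.

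Several probes carry the results that follow. The Mki67 probe shown first lies on chr1 between 195310343 and 195313027 of rn4, the assembly named in the files. It spans 2685 genomic bases for a probe of 60, so its target is a spliced transcript. The Smc4 probes are shown because their readings differ. The brighter lies at chr2:159001380-159001439, and the other at chr2:159013946-159014005. Capitals mark a stretch of 15 bases, positions 17 to 31 from the 5′ end, that recurs elsewhere.
Mki67, second probe: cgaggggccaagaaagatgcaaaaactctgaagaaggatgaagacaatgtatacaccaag
Smc4, brightest probe: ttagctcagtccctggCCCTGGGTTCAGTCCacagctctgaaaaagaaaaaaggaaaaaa
Smc4, other probe: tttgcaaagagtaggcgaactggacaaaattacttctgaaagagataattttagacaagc
The marked Smc4 stretch was present on one strand or the other in 23 of 33469 promoter windows of GRCr8, and any 15 bases of that probe in 29. For the remaining 19 probes named for members, by gene name or description, any stretch of that length occurred in 0 to 7 windows.

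Mki67 was highest in 8c in every experiment. On the brightest of its 4 probes, printed 10 times on each array, the 2c levels were -3.64, -5.79, -3.98, -2.42 and -3.27 in experiments 1 to 5. The 4c levels were -4.71, -6.98, -4.20, -2.45 and -4.52, and only the array at -6.98 was not well above background. The 8c levels were -1.14, -3.74, -0.94, -0.55 and -0.90. Within each experiment 8c stood above both other classes. Of all features 7.19% were higher in 8c than in 2c in 5 of 5 experiments and 8.83% higher than in 4c. Across experiments the classes overlapped, and experiment 2, from the oldest rats, was low throughout. The 8c class exceeded 2c by 2.37 on the log2 scale (SE 0.24, limma adjusted p = 0.00124), a 5.16-fold difference of means. It exceeded 4c by 3.12 (SE 0.24, limma adjusted p = 0.000414), at least 8.03-fold with the dim 4c array at its floor, the lowest level among probes well above background there. The 4c level was below 2c in 5 of 5 experiments, by 0.03 to 1.25, and this difference of -0.75 (SE 0.24) did not pass (limma adjusted p = 0.165). Of all features, 8.62% were lower in 4c in 5 of 5 experiments.

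The other Mki67 probes gave the same order. The probe across the splice junction gave 2.16 for 8c over 2c (SE 0.22, limma adjusted p = 0.00131) and 2.87 over 4c (SE 0.22, limma adjusted p = 0.000427). A probe whose interval overlaps that one at its end gave 2.14 and 2.62 (limma adjusted p = 0.0189 and 0.0118). The dimmest probe was above background on 9 arrays and gave 1.46 and 2.89, neither of which passed (limma adjusted p = 0.481 and 0.39). Its 8c level was above 2c in 5 of 5 experiments and above 4c in 4 of 5.

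**Figure D1:**
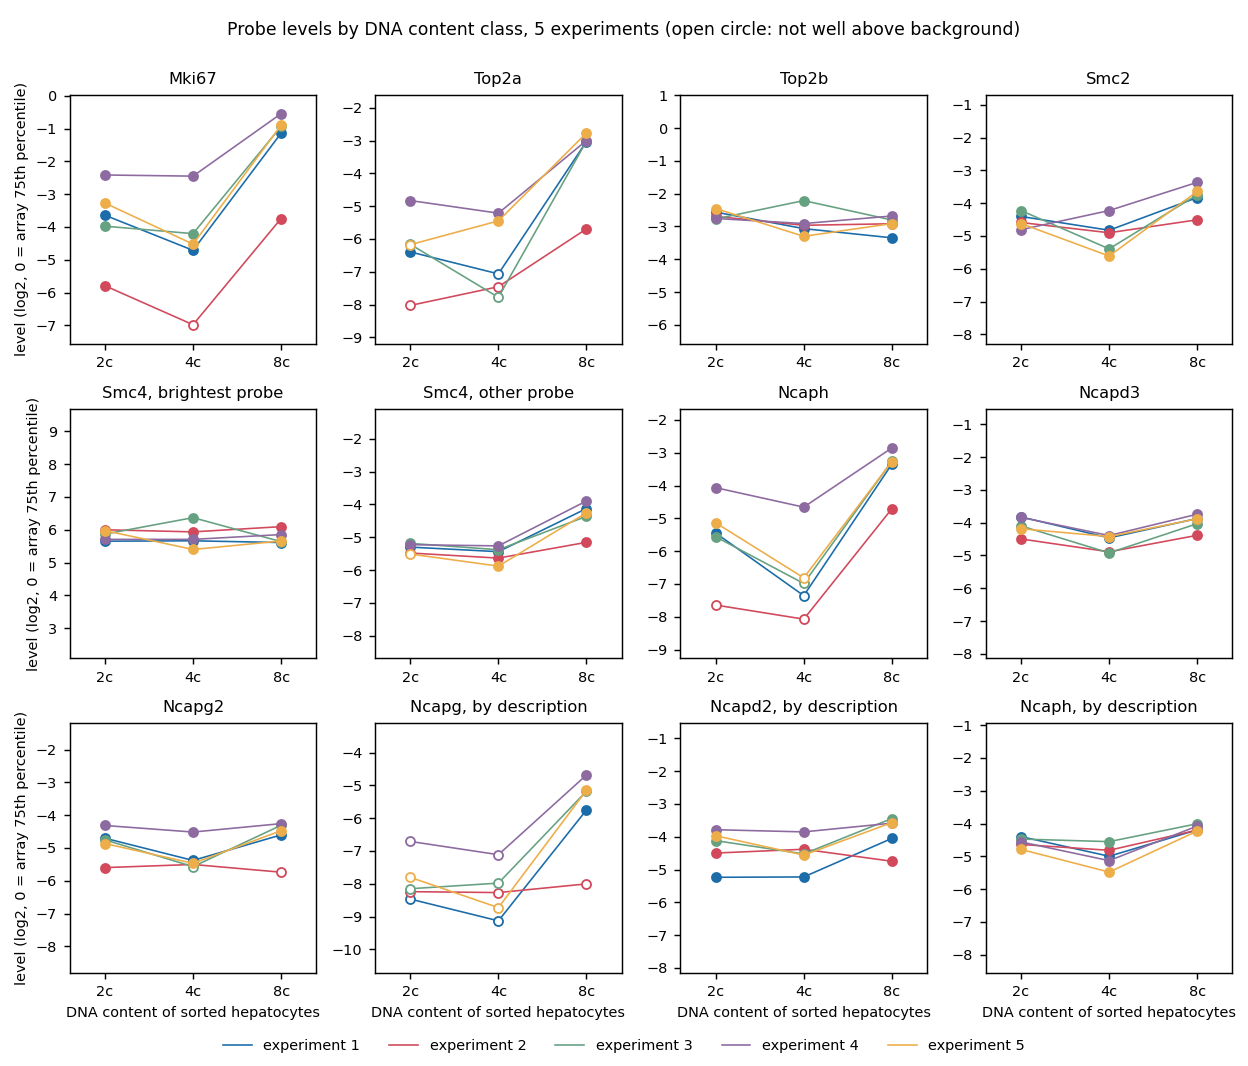
Level of 12 probes (log2, 0 is the 75th percentile of the array) in 2c, 4c and 8c hepatocytes, 1 line per experiment and open circles for arrays not well above background. Each axis spans the same number of log2 units, and Mki67, Top2a and Ncaph rise steeply to 8c while the lines of Top2b and the brightest Smc4 probe cross 8c near their 2c levels.

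Top2a was near background outside the 8c class. Its single probe, printed in 2 spots, was well above background on 2 of 5 arrays in 2c, 2 of 5 in 4c and 5 of 5 in 8c, so it entered the test only through the 8c arrays. The 2c levels in experiments 1 to 5 were -6.39, -8.03, -6.16, -4.83 and -6.17, those of experiments 2, 3 and 5 not well above background. The 4c levels were -7.06, -7.45, -7.78, -5.21 and -5.45, with experiments 1 to 3 not well above background. The 8c levels were -3.03, -5.69, -3.02, -3.00 and -2.77. Of these, 4 lay within a narrow band above every 2c and 4c array, and experiment 2 did not. The 8c class exceeded 2c by 2.82 (SE 0.40, limma adjusted p = 0.00631), at least 5.48-fold with dim arrays at their floor. It exceeded 4c by 3.09 (SE 0.40, limma adjusted p = 0.00522), at least 5.75-fold. The 4c minus 2c difference of -0.28 (SE 0.40) did not pass (limma adjusted p = 0.782), and 3 of 5 experiments read lower in 4c, experiment 3 with both arrays dim.

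Top2b, the beta form, passed in no comparison. Its brightest probe was above background on all 15 arrays, at -2.56, -2.69, -2.77, -2.76 and -2.45 in 2c. The 4c levels were -3.06, -2.96, -2.21, -2.91 and -3.30, and the 8c levels were -3.34, -2.92, -2.80, -2.68 and -2.91. The classes overlapped and no difference passed: 8c minus 2c was -0.28 (SE 0.18, limma adjusted p = 0.5), and 8c minus 4c was -0.04 (SE 0.18, limma adjusted p = 0.969). Its other 2 probes, at mean levels of -5.31 and -5.92, gave 8c minus 2c differences of -0.21 and -0.06, and neither passed. The 8c minus 2c difference of Top2a minus that of Top2b was 3.1 ± 0.97 (SD, n = 5) with dim arrays as read, positive in 5 of 5 experiments, and 2.74 with dim arrays at their floor. Since Top2a was tested only through the 8c arrays, this is a description. The planned exact two-sided sign-flip permutation test could not pass: its p of 0.0625 is the smallest that 5 experiments allow, 0.125 after Benjamini-Hochberg adjustment over the 2 pairs that could be compared.

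Ncaph, the kleisin of condensin I, was the condensin subunit with the largest rise among those tested by gene name. Its probe under that gene name read -5.45, -7.64, -5.56, -4.07 and -5.14 in 2c, with experiment 2 not well above background. In 4c it read -7.36, -8.07, -6.99, -4.66 and -6.81, and only experiment 4 was well above background. In 8c it read -3.35, -4.71, -3.26, -2.86 and -3.27, all well above background. The 8c level was the highest within each of the 5 experiments. The 4c level read lowest in each, but in experiment 2 neither 2c nor 4c was well above background, so those have no order. The 8c class exceeded 2c by 2.08 (SE 0.29, limma adjusted p = 0.00604), at least 3.58-fold with dim arrays at their floor. It exceeded 4c by 3.29 (SE 0.29, limma adjusted p = 0.000588), at least 6.63-fold. The 4c minus 2c difference was -1.21 (SE 0.29) and did not pass (limma adjusted p = 0.0834). With dim arrays at their floor it was -0.89 (limma adjusted p = 0.201). Without experiment 4, which holds the only 4c array well above background, the fit gave -1.36 (limma adjusted p = 0.0395) against 4c arrays that were all dim, so that value is no measure of size.

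A second Ncaph probe, named by its description, showed smaller differences of the same order. It lay between -4.79 and -4.40 in 2c, between -5.48 and -4.55 in 4c and between -4.23 and -4.01 in 8c, above background on all arrays. No 8c array overlapped 2c or 4c, which was so for 0.475% and 0.334% of all features. The 8c class exceeded 4c by 0.85 (SE 0.11, limma adjusted p = 0.00497), and its excess over 2c of 0.43 (SE 0.11) did not pass (limma adjusted p = 0.0795). The probes of Ncaph disagreed in size, with 8c minus 2c at 2.08 on the first and 0.43 on the second.

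**Figure D2:**
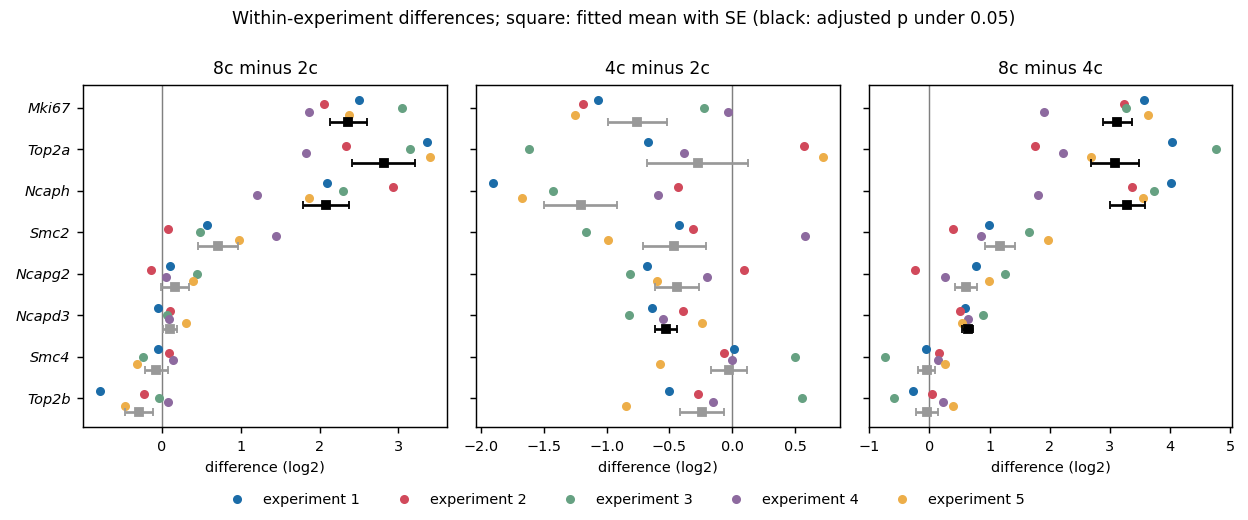
Differences between classes within each experiment (log2) for the 8 tested members, with squares for the fitted mean and its SE, black where the adjusted p was under 0.05. Mki67, Top2a and Ncaph lie to the right of 0 in all 5 experiments in both 8c panels, and Ncapd3 alone is black in the 4c minus 2c panel.

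The ATPase subunits gave a mixed reading, because the Smc4 probes differed. Smc2 was above background on all arrays, at -4.41, -4.59, -4.23, -4.81 and -4.62 in 2c. Its 4c levels were -4.83, -4.90, -5.39, -4.23 and -5.61, and its 8c levels -3.83, -4.51, -3.75, -3.37 and -3.64. The 8c level was above 2c and 4c in 5 of 5 experiments, yet the differences of 0.71 (SE 0.25) and 1.17 (SE 0.25) did not pass (limma adjusted p = 0.211 and 0.0953). Being higher in 8c in 5 of 5 experiments held for 7.19% of all features against 2c and 8.83% against 4c. Smc4 was represented by its brightest probe, the one with the recurring stretch, at a mean level of 5.81 over the 15 arrays. That mean is above those of 99.8% of probes on the array. With experiment means removed, this probe correlated with the other Smc4 probe at -0.09 over the 15 arrays. Whether it reads Smc4 was not tested, so its values are no measure of that transcript. The brightest probe differed by -0.07 (SE 0.14) between 8c and 2c and by -0.04 (SE 0.14) between 8c and 4c (limma adjusted p = 0.873 and 0.954).

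The other Smc4 probe, listed under the RefSeq transcript, was higher in 8c. It read -5.30, -5.48, -5.19, -5.23 and -5.51 in 2c, the last not well above background. The 4c levels were -5.44, -5.64, -5.38, -5.26 and -5.88, and the 8c levels -4.12, -5.15, -4.36, -3.89 and -4.26. Every 8c array lay above every 2c and 4c array, although in experiment 2 the margin was small. Such a gap was found for 0.475% of all features against 2c and 0.334% against 4c. When each probe was tested on its own, 8c exceeded 2c by 0.98 (SE 0.15, limma adjusted p = 0.0089) and 4c by 1.16 (SE 0.15, limma adjusted p = 0.0052). Taking that probe for Smc4, a choice made after its values were seen, left the other members as they were and raised the number of members higher in 8c from 3 to 4 against 2c and from 4 to 5 against 4c.

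**Figure D3:**
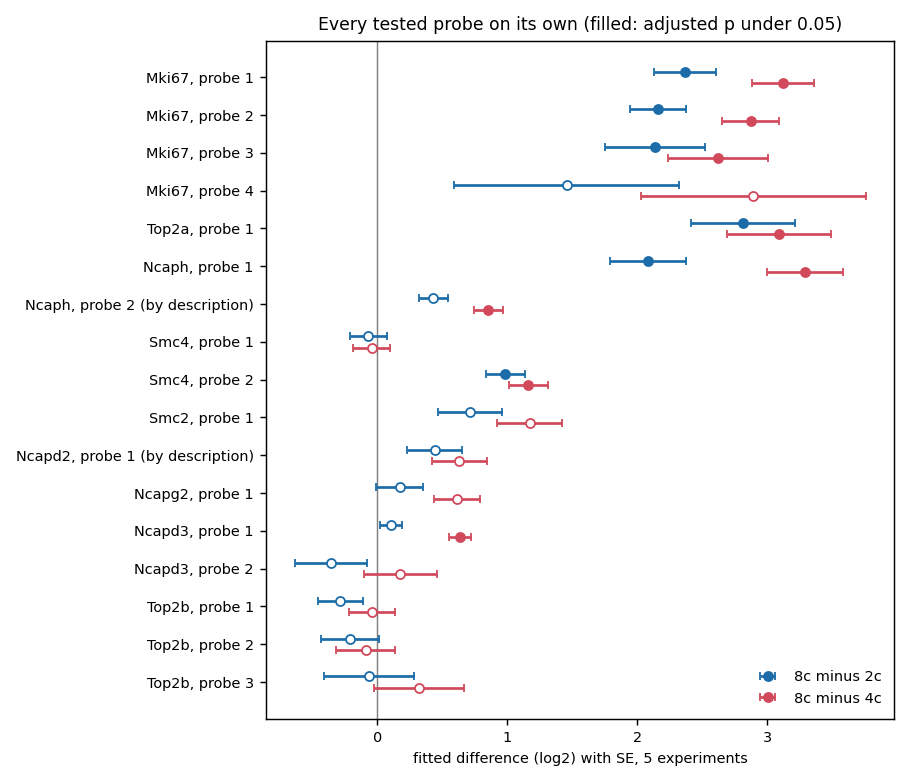
Fitted differences of 8c over 2c and over 4c (log2, bars are SE) for each tested probe on its own, filled where the adjusted p was under 0.05. Probes of Mki67 agree in sign, while the probes of Smc4 differ, at -0.07 and 0.98 for 8c minus 2c.

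Among condensin II subunits, Ncapd3 was lowest in 4c in every experiment. Its brighter probe read -3.82, -4.50, -4.10, -3.84 and -4.19 in 2c, -4.46, -4.89, -4.92, -4.39 and -4.42 in 4c, and -3.87, -4.39, -4.03, -3.74 and -3.88 in 8c. The 4c arrays were below their 2c partners in 5 of 5 experiments, by 0.24 to 0.82, and 8.62% of all features were lower in 5 of 5. Ncapd3 was the only member to pass between 4c and 2c, at -0.53 (SE 0.09, limma adjusted p = 0.03). It was higher in 8c than in 4c by 0.63 (SE 0.09, limma adjusted p = 0.00636), with no overlap of the classes, as for 0.334% of all features. The 8c minus 2c difference of 0.11 (SE 0.09) did not pass (limma adjusted p = 0.62). A dimmer Ncapd3 probe gave -0.53 (SE 0.28) between 4c and 2c and 0.18 (SE 0.28) between 8c and 4c, and neither passed (limma adjusted p = 0.385 and 0.901). Leaving out any of the 5 experiments ended its call between 4c and 2c (limma adjusted p = 0.0564 to 0.139), as did several other alternatives.

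Ncapg2, the HEAT-repeat partner of Ncapd3 in condensin II, passed in no comparison. It read -4.71, -5.60, -4.76, -4.32 and -4.87 in 2c, -5.38, -5.50, -5.57, -4.52 and -5.47 in 4c, and -4.60, -5.74, -4.31, -4.26 and -4.47 in 8c. The readings of -5.57 in 4c and -5.74 in 8c were not well above background. The classes overlapped, and the 8c minus 2c difference of 0.17 (SE 0.18) and the 8c minus 4c difference of 0.61 (SE 0.18) did not pass (limma adjusted p = 0.714 and 0.354). Its other 2 probes were not well above background on any array.

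The condensin I subunits without a probe of that gene name could be read only through descriptions. The Ncapg probe was well above background on 0 of 5 arrays in 2c, 0 of 5 in 4c and 4 of 5 in 8c, too few arrays for the test. Its 8c levels were -5.75, -8.00, -5.18, -4.68 and -5.15, the array of experiment 2 not well above background. Against the floor of the 2c arrays the 8c mean, with its dim array as read, was 1.55-fold higher. Against that of the 4c arrays it was 1.98-fold higher, with no test. Ncapd2 was above background on all arrays. It was higher in 8c than in 2c in 4 of 5 experiments, by 0.44 (SE 0.21, limma adjusted p = 0.369), and higher than in 4c by 0.63 (SE 0.21, limma adjusted p = 0.493), and neither passed. Its 8c minus 2c difference exceeded that of Ncapd3 by 0.34 ± 0.61 (SD, n = 5, exact sign-flip permutation p = 0.312). The planned comparison of Ncapg with Ncapg2 could not be made, since Ncapg was not tested.

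The filter asked for 5 arrays well above background, and Top2a reached it only with 8c. Over the 8 tested members, 3 were higher in 8c than in 2c (Mki67, Top2a and Ncaph) and 0 were lower, against 0.809% of all tested features called higher and 1.56% called lower. The median member difference was 0.44, and that of all features -0.02. Member counts and medians here take Smc4 by its brightest probe, whose values are no measure of that transcript. Without Top2a, 2 of 7 were higher, with a median of 0.17, and against 4c 3 of 7. Between 8c and 4c, 4 were higher (those 3 and Ncapd3) and 0 lower, against 0.639% and 0.0117% of all features, with medians of 0.90 and 0.004. Between 4c and 2c, 0 were higher and 1 was lower, against 0.264% and 1.01%, with medians of -0.45 and -0.03. At an unadjusted limma p under 0.05, 4 members were lower in 4c than in 2c and 0 higher, against 10.1% and 5.80% of all features. The 8c samples are shared by both comparisons with 8c. Without the replicate block the number of members higher in 8c was 0 against either class, where 6 and 0 of all 17055 features were higher. Without the 6 arrays rich in acinar transcripts, which leaves 2 arrays in 8c, 0 of all 17055 features passed in either direction, members included, while Mki67 stood 2.19 higher, Top2a 2.32 and Ncaph 1.49 in 8c than in 2c.

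Slides and ages were set beside these differences. When slide replaced experiment as the block, Mki67 was 2.03 higher in 8c than in 2c (limma adjusted p = 0.266), Top2a 2.49 (limma adjusted p = 0.043) and Ncaph 1.80 (limma adjusted p = 0.178). Within the first slide these differences were 2.43, 2.59 and 2.47, and within the second 2.12, 2.62 and 1.54. Within either slide 0 of all 17055 features passed between 8c and 2c. The 8c minus 2c difference of Mki67 was 2.28 in the 2 experiments on rats of 12 and 14 weeks and 2.43 in the 3 on younger rats. For Top2a it was 2.85 and 2.79, and for Ncaph 2.52 and 1.79. No member passed for the interaction of DNA content and age class (lowest limma adjusted p = 0.948), and 0 of the 8 had an unadjusted p under 0.05, against 4.67% of all features. Of all 17055 features, 0 passed and 797 had an unadjusted p under 0.05.

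Normexp background correction with an offset of 50 shrank the differences of these dim probes. For 8c over 2c, Mki67 fell to 1.35 and Top2a to 0.66 and both still passed (limma adjusted p = 0.0041 and 0.0203), while Ncaph fell to 0.50 and did not (limma adjusted p = 0.059). Leaving out experiment 5 took Top2a to 2.67 between 8c and 2c (limma adjusted p = 0.0523). Leaving out experiment 1 took it to 2.86 between 8c and 4c (limma adjusted p = 0.0713).

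Genes with profiles most like Mki67 and Top2a were sought over the 15 arrays after the mean of each experiment was removed. For Mki67 these were Cdk1 (Pearson r = 0.990), the kinase that drives entry into mitosis, Cdca3 (0.985), Tubb6 (0.984), the ribonucleotide reductase subunit Rrm2 (0.984) and the microtubule regulator Stmn1 (0.983). For Top2a they were Cep55 (0.970), which acts in abscission, Sapcd2 (0.968), the kinesin Kif20a (0.957), the kinetochore protein Ndc80 (0.956) and the ubiquitin ligase Traip (0.955). Among members, Mki67 correlated with Ncaph at 0.97, with Top2a at 0.91, with the other Smc4 probe at 0.92 and with Smc2 at 0.83. The brightest Smc4 probe correlated with Mki67 at -0.12 and with Top2b at 0.76. These values describe arrays that share experiments and slides, and 9 of the 10 genes listed as most alike were not well above background on at least 1 array. Of the 15 arrays, Top2a was well above background on 9, Cep55 and Ndc80 on 6 and Traip on 10. The correlations of those genes with Top2a thus rest in part on readings not well above background.

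Other genes of chromosome condensation and related processes were taken as 6 lists, and no difference between lists was tested. The list of condensin and its partners also holds spindle proteins. Of its 11 tested genes, 5 were higher in 8c than in 2c and 0 lower. Nusap1, which binds spindle microtubules near chromatin, was higher by 2.87 (SE 0.26, limma adjusted p = 0.00107) and Cdk1 by 2.99 (SE 0.34, limma adjusted p = 0.00251), and both were well above background on at least 5 arrays outside 8c. The remaining 3 reached the filter only with the 8c arrays, as Top2a did, so their calls are no support for a direction. With dim 2c arrays at their floor and 8c arrays as read, the spindle assembly factor Tpx2 was 2.89-fold higher (limma adjusted p = 0.00977). On that scale Kif22, a chromosome-arm kinesin, was 3.33-fold higher (limma adjusted p = 0.0187) and Ckap2, a spindle protein, 5.75-fold (limma adjusted p = 0.0322). Each was well above background on 4 of 5 arrays in 8c, so these folds are not lower bounds. Without these 3 genes, 2 of 8 were higher, where 0.809% of all features were called higher. Ncaph2, the kleisin of condensin II, was 0.23 higher (SE 0.08) and did not pass (limma adjusted p = 0.19). Akap8, Akap8l, Csnk2a1, Smarca5 and Kmt5a did not pass either. The median of this list was 0.23, and 0.12 without those 3 genes, against -0.02 for all features. Against 4c, 3 of the 11 were higher in 8c (Nusap1, Cdk1 and Tpx2), and between 4c and 2c none passed. Without Tpx2, Kif22 and Ckap2, 2 of 8 were higher against 4c, where 0.639% of all features were.

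The list of the chromosomal passenger complex and histone H3 kinases, which also holds other mitotic genes, gave 3 higher in 8c than in 2c of 9 tested and 0 lower. Bub1, a kinase of the centromere, was higher by 1.77 (SE 0.21, limma adjusted p = 0.00347). The passenger scaffold Incenp was higher by 1.23 (SE 0.23, limma adjusted p = 0.0244). Survivin, Birc5, was well above background on 2 arrays in 2c, 2 in 4c and 4 in 8c and reached the filter only with 8c. It was 3.11-fold higher with dim 2c arrays at their floor and 8c arrays as read (limma adjusted p = 0.0281). Aurkb, the kinase of the complex, was 0.27 higher (SE 0.08) and did not pass (limma adjusted p = 0.142). The histone H3 kinases Haspin and Vrk1 differed by 0.48 and -0.02, and neither passed (limma adjusted p = 0.24 and 0.965). Against 4c, 3 of 9 were higher, among them Pbk, which also reached the filter only with 8c, and between 4c and 2c none passed. Without Birc5 and Pbk, 2 of 7 were higher in 8c than in 2c and 2 of 7 than in 4c. Of all features, 0.809% and 0.639% were called higher in those comparisons.

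In the cohesin list 2 of 15 tested genes were higher in 8c than in 2c and 0 lower. Both act in the release of cohesin. Securin, Pttg1, the inhibitor of separase, was above background on all arrays and higher by 1.28 (SE 0.18, limma adjusted p = 0.00631). Separase itself, Espl1, was well above background on 2 arrays in 2c, 2 in 4c and 5 in 8c and reached the filter only with 8c. It was at least 4.35-fold higher with dim arrays at their floor (limma adjusted p = 0.00195). Of the ring subunits, Smc1a differed by 0.11, Smc3 by 0.10 and Rad21 by 0.09, and none passed. Against 4c, Cdca5, which stabilizes cohesin on replicated DNA, passed as well and was higher by 2.3 (SE 0.43, limma adjusted p = 0.0453). Without Espl1, 1 of 14 was higher in 8c than in 2c and 2 of 14 than in 4c. The shares of all features called higher were 0.809% and 0.639%.

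In the remaining lists 0 tested genes passed in any of the 3 comparisons. These were the 14 tested partners of Ki-67 at the chromosome periphery and nucleolus, the 10 of the Smc5-Smc6 complex and related proteins, and the 9 other topoisomerases and repair factors for their adducts. Of all features, 0.809% were called higher and 1.56% lower between 8c and 2c, and 0.639% and 0.0117% between 8c and 4c. Between 4c and 2c the shares were 0.264% and 1.01%. In lists of this size a count of 0 lies near those shares. Npm1, an abundant nucleolar protein and the brightest of the Ki-67 partners, was 0.09 higher in 8c than in 2c (SE 0.07, limma adjusted p = 0.596). Smc6 differed by -0.09 (SE 0.08, limma adjusted p = 0.661) and Top1 by -0.28 (SE 0.20, limma adjusted p = 0.567).

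**Figure D4:**
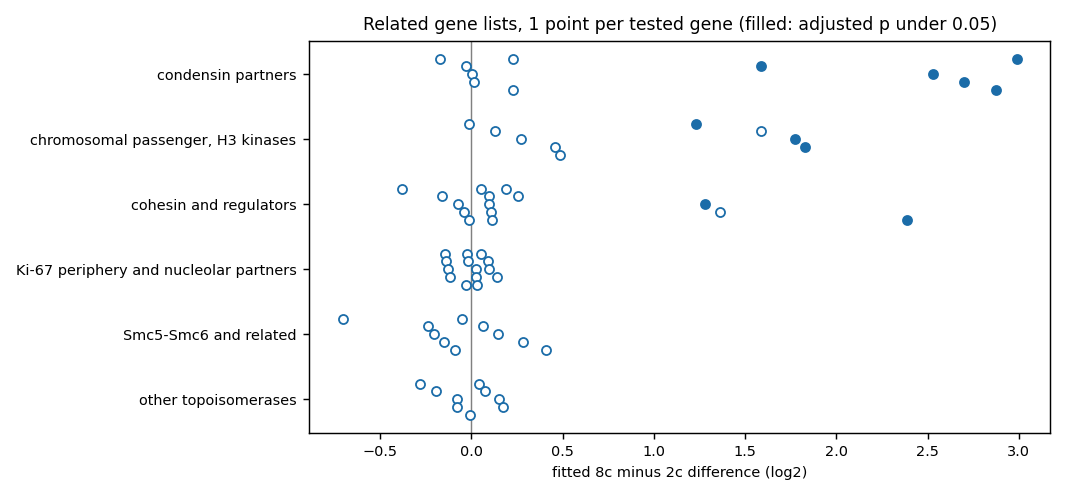
Fitted 8c minus 2c difference (log2) of each tested gene in 6 lists, filled where the adjusted p was under 0.05. Filled points lie above 1 in the condensin partner, passenger and cohesin lists, and the other 3 lists have none.

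Upstream sequence was examined because Mki67, Top2a and Ncaph were higher together in 8c. The windows are the 250 bases before the annotated start in RefSeq, build GRCr8, on the gene's own strand, and all 10 members matched an entry. In all, 4 motifs were searched on both strands. One was CCAAT, another was TTTGAA, and the others were TTTAAA along with TTCGAA. Capitals mark only the first 2 of these, as CCAAT or ATTGG and as TTTGAA or TTCAAA.
Top2a, chr10:84473094-84473343, minus strand: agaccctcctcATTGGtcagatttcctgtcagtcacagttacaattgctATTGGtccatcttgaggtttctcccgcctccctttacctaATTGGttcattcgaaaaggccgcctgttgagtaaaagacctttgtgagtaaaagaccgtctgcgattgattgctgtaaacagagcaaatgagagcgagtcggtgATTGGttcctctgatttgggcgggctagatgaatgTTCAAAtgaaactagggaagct
Mki67, chr1:199952594-199952843, minus strand: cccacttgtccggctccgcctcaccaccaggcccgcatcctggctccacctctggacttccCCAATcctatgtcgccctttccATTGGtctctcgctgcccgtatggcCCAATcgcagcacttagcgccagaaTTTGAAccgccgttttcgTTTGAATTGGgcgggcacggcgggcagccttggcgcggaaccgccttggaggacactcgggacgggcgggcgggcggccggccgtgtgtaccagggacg
Ncaph, chr3:134852503-134852752, minus strand: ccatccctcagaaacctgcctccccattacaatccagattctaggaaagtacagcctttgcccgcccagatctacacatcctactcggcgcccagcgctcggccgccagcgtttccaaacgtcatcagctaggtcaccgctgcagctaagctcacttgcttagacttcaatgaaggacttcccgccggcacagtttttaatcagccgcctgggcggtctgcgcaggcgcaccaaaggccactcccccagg
Top2a held 4 matches of CCAAT and 1 of TTTGAA, the last beginning 22 bases before the start. Mki67 held 4 of CCAAT and 2 of TTTGAA, and one of each overlap there. Ncaph held neither. Among the 33469 windows of this length, 34.0% held CCAAT, 16.2% TTTGAA, 12.3% TTTAAA and 1.40% TTCGAA, and 5.87% held both CCAAT and TTTGAA. Of the 10 members, 7 held CCAAT and 6 held CCAAT and TTTGAA, namely Top2a, Mki67, Smc2, Smc4, Ncapd2 and Ncapg. Top2b held 2 matches of CCAAT and none of TTTGAA, and Ncapg2 and Ncapd3 held neither. TTTAAA was found in 1 member, Smc2, and TTCGAA in 1, Top2a.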

How the data were processed

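Each sample was read on 1 one-colour Cy3 array of 62976 spots. Per the file headers, the deposited arrays were extracted with Agilent Feature Extraction 11.5.1.1 on build rn4, while the submitters' processing notes name 10.7.3.1. The deposited intensity is the processed signal, linear and background-subtracted. The deposited value table matched it within 1% for 99.3% of values. Here spots of a probe were averaged without outlier flags, taken to log2 and scaled as described. A probe was tested if well above background (at least 0.5 of its spots) on 5 arrays or more, and a gene was represented by its brightest such probe. Probe names came from the files and, for other genes, through the accession.

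Models were fitted with limma 3.58.1 (lmFit, eBayes) in R 4.3.3, with all 15 arrays and the experiment as a block, two-sided, with Benjamini-Hochberg adjustment over 17055 features and a threshold of 0.05. The numbers in the sample titles were read as the 5 independent experiments that the series' design text states. Arrays of a number share an age in the labels, and whether they share an isolation or animals is not stated there. Deviations from class means correlated with a median r of 0.585 (0.038 to 0.789, 15 pairs) within experiments. For arrays of different experiments and different classes it was -0.13. Removing class means itself pulls that value below 0, so it is no separate contrast. The fit was tested on simulated data. A probe's floor is the lowest level among probes well above background on its array. Members, gene lists and marker lists were chosen with earlier results of these data known. All members were to be named, with up to 3 passing genes of each list by smallest p in 8c against 2c, or else the brightest, and the 5 genes most like Mki67 and Top2a. Further list genes were named for their role after their values were seen. Alternatives covered scaling, background correction, the filter, probe choice, blocks, slides and samples left out. No rn4 genome was used here, so the part of a gene under a probe is not stated.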

Additional observations from a re-analysis of the deposited data

Results flagged for a closer look

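Several members had an array that stood apart from the other 4 of its class, by a gap-to-range test at the 95% level. The test was applied to 51 groups of 5 arrays, and chance flags about 1 group in 20. Of the 8 groups marked, 7 concern the 8c array of experiment 2, which was the lowest. Top2a was at -5.69 there, against -3.03 to -2.77 on the other 8c arrays. The 4 Mki67 probes were at -3.74, -4.24, -5.82 and -6.46, where the next lowest 8c arrays were at -1.14, -1.87, -3.19 and -3.96. Ncaph was at -4.71 against -3.35 to -2.86, and Ncapg2 at -5.74 against -4.60 to -4.26. Of these readings, -5.82 and -6.46 of Mki67 and -5.74 of Ncapg2 were not well above background. Probes of 1 gene share their RNA, so these marks are not independent. On that array 21 acinar transcripts had a median level of 3.36, the highest of any 8c array, and it came from the oldest rats, at 14 weeks. Their part in the low values was not tested. The 2c and 4c arrays of the same experiment were low for Mki67 too, and its 8c minus 2c difference there was 2.05. The remaining mark was Ncapg2 in 4c, where experiment 4, from the youngest rats, was the highest at -4.52 against -5.57 to -5.38.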

How the results depend on the processing

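The number of members higher in 8c than in 2c (3) was 0 with the filter that asks for all arrays. That filter leaves 4 members and drops Mki67, Top2a and Ncaph, the 3 called, so these were not tested again. The number was also 0 without the replicate block, within slide 1, within slide 2, without the acinar arrays and without experiments 1 and 2. It was 1 with the slide as block and 6 of 15 when every probe was counted. Of all features 0 were higher within either slide and without the acinar arrays, 2 without experiments 1 and 2 and 6 without the replicate block. Leaving out each experiment gave 2 to 3. For 8c against 4c (4 higher) the same settings gave 1, 0, 0, 0, 0 and 0, then 2 and 7, and leaving out each experiment gave 2 to 4, the lowest without experiment 1. The single member lower in 4c than in 2c became 0 under quantile normalization, the percentile over all probes, normexp, no filter, the mean of probes, no replicate block, slide as block, within each slide, and without the acinar arrays or experiments 1 and 2. Leaving out each experiment gave 0 to 1. Ncapd3 passed in none of these fits, and Ncaph passed without experiment 4, where its 4c arrays were all dim. For the other counts of this paragraph the share of all features is not given. A loss particular to the members cannot be told there from a general one. The Top2a minus Top2b difference fell to 0.90 under normexp and ranged from 2.84 to 3.44 with experiments left out. The cause of these shifts was not tested, except that settings with fewer arrays or probes have less to test.

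Sign changes concerned values that did not pass. Ncapd3 in 8c minus 2c was -0.0854 with normexp, -0.357 on its dimmer probe, -0.125 as a mean of probes and -0.0203 within slide 1. Ncapg2 was -0.0905 with normexp and -0.107 within slide 1. Smc4 in 4c minus 2c was 0.00621 with median scaling, 0.0429 with the percentile over all probes and 0.149 within slide 1, and -0.157 to 0.112 with experiments left out. In 8c minus 2c Smc4 was 0.00998 with the percentile over all probes, 0.457 as a mean of probes, 0.115 within slide 1 and 0.0464 without acinar arrays. In 8c minus 4c Smc4 was 0.559 as a mean of probes, 0.202 within slide 2, 0.0708 without acinar arrays and -0.12 to 0.128 with experiments left out. Its other probe passed, at 0.98 and 1.16, alone or in place of the brightest. Top2a in 4c minus 2c was 0.169 within slide 2 and -0.525 to 0.0599 with experiments left out. Top2b in 8c minus 4c was 0.32 on its dimmest probe, 0.0624 as a mean of probes, 0.309 within slide 2, 0.132 without acinar arrays, 0.00862 without experiments 1 and 2 and -0.149 to 0.096 with experiments left out. The interaction with age class gave 0 members under every setting run.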
